A study of Mus musculus with 12 samples.

Results

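Satellite cells are the resident stem cells of skeletal muscle, and this comparison set them, freshly sorted and quiescent, against non-myogenic cells sorted fresh from the same tissue. The quiescent group held 4 arrays and the non-myogenic group 4 arrays, which together make 8 of the 12 arrays of the series. All arrays with the 2 group labels entered, and no measured value was used to choose them. The remaining 4 arrays hold satellite cells activated in culture for 4 days, and they enter the estimate of the spread, the choice of tested genes and the kit term, and through the kit term they can also move the difference.

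Mice of all groups were C57BL/6J, aged 8 to 12 weeks, with no transgene or treatment named in the labels, and the tissue was hind limb muscle. Quiescent cells were positive for SM/C-2.6, an antibody that recognises a surface antigen of quiescent satellite cells, and were collected directly after the sort; over 97% of them were labelled as Pax7 positive. Non-myogenic cells were negative for SM/C-2.6 and for CD45, the pan-leukocyte antigen, and were also collected directly after the sort; fewer than 1% were labelled as myogenic. The labels name the CD45 gate for the non-myogenic fraction alone, so a difference in blood cell transcripts can follow the gate. They do not say how many animals each sample came from or whether samples shared animals, so the p-values reflect only how these samples varied, and that variation may be technical. The non-myogenic fraction is a mixture of cell types, and in such bulk RNA a larger share of cells of a type and more RNA per cell cannot be told apart.

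Satellite cells lie between the plasma membrane of the muscle fibre and the basement membrane, and in uninjured adult muscle they rest outside the cell cycle. They are specified by the paired-box factor Pax7, they carry the myogenic factor Myf5 at the RNA level, and their rest is known to depend on Notch signalling and on the calcitonin receptor. The mononuclear cells around them are mostly endothelial cells of the capillaries, fibroblast-like progenitors of the interstitium, mural cells of the vessels, tendon-associated cells and blood cells.

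The values are the deposited probe set signals of Affymetrix Mouse 430A arrays, scaled here to a common mean per array, with 1 probe set per gene. A difference is a log2 difference, quiescent minus non-myogenic, of the scaled signal plus a pseudocount of 14.7, fitted with limma across all 12 arrays with the labelling kit as a term, and it is given ± its standard error. The pseudocount makes the differences of dim genes smaller than the ratio of their signals. A gene was called where the Benjamini-Hochberg adjusted p over all 7960 tested genes was under 0.05. Signals of different genes come from different probes and are not compared with each other.

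Arrays of the same group correlated at 0.903 to 0.976 within the quiescent and 0.938 to 0.984 within the non-myogenic group over log2 signals, against 0.674 to 0.783 between the groups. Signal ratios of 3′ to 5′ Gapdh probe sets, a sign of RNA integrity and amplification, were 4.02 ± 0.969 (SD, n = 4) in quiescent and 3.87 ± 0.916 (SD, n = 4) in non-myogenic arrays. The same ratios of Actb were 2.63 ± 1.04 (SD, n = 4) and 1.96 ± 0.374 (SD, n = 4), with quiescent replicates 3 and 4 at 4.09 and 2.57, above the highest non-myogenic array at 2.28; the part of RNA quality in the differences was not tested. The small-sample labelling kit was used for 2 quiescent and 1 non-myogenic arrays, and the two-cycle kit for 2 and 3. Of the called genes, 31 of 4214 had opposite signs within the kits, and for 455 the fitted difference lay outside both within-kit differences. A limma interaction of kit and group called 0 genes, with 888 of 7960 at an unadjusted p under 0.05; 1 of its 4 arms is a single array, so it does not show that the kits gave equal differences.

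The majority of tested genes differed between the fractions. Of 7960 genes tested, 4214 were called (52.9%), with 2099 higher in quiescent cells (26.4%) and 2115 higher in non-myogenic cells (26.6%). The large differences lay more often on the non-myogenic side: 1095 genes (13.8%) were called and at least 2-fold higher there, against 666 (8.37%) in quiescent cells, and 312 (3.92%) against 92 (1.16%) at 5-fold. For 3157 genes (39.7%) every array of one fraction lay above every array of the other. The median difference of all genes was 0.03. Without scaling it shifted by -0.35 and the split became 817 higher in quiescent and 3183 higher in non-myogenic cells, so the even split of small differences rests on the scaling; differences below are relative to the scaled mean.

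**Figure D1:**
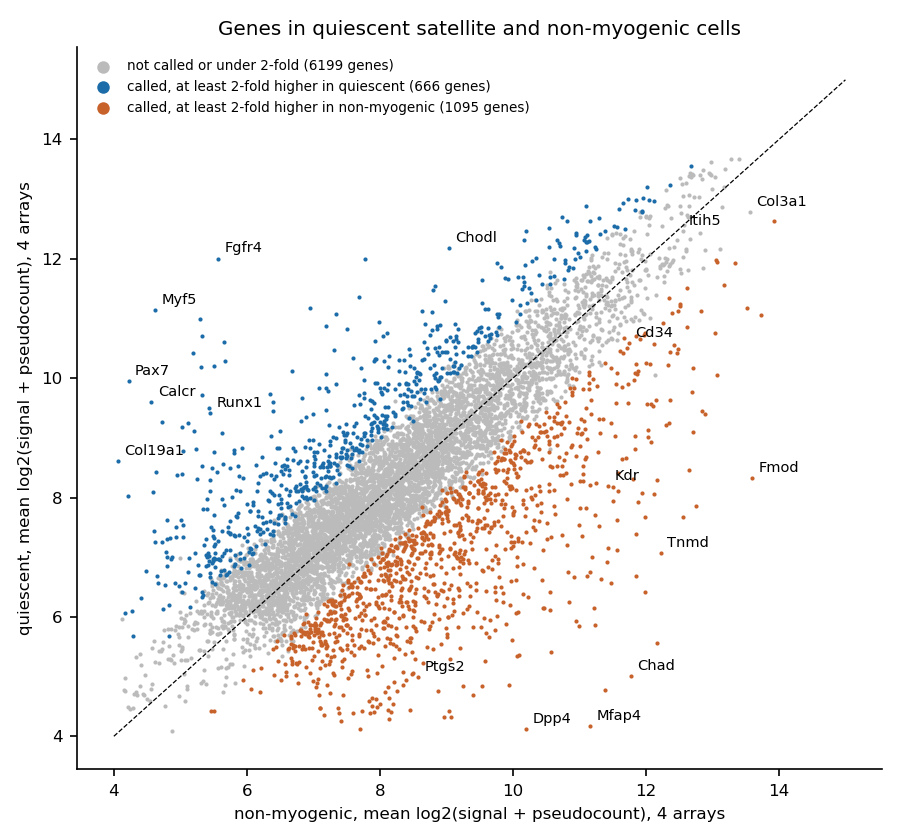
Mean log2(signal + pseudocount) of 7960 genes over the 4 non-myogenic arrays (horizontal axis) and the 4 quiescent arrays (vertical axis), 1 point per gene; the dashed line marks equality. Blue points (666 genes) were called and at least 2-fold higher in quiescent cells, orange points (1095 genes) in non-myogenic cells; Fgfr4, Myf5 and Pax7 lie farthest above the line among the labelled genes and Mfap4, Chad and Dpp4 far below it.

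Markers of the sorted fraction are described first. Their list was made with earlier results of these data known and leaves out Cd34, given below. It is therefore not an independent check of the fraction. Of 23 tested satellite cell markers, 21 were higher in quiescent and 2 in non-myogenic cells, with a median difference of 3.39 (3.47 on small-sample arrays alone and 3.56 on two-cycle arrays alone). Pax7, the factor that labels the fraction, read 1004, 1899, 743 and 640.2 on the 4 quiescent arrays and 6.66, 3.01, 1.24 and 5.39 on the 4 non-myogenic arrays. Its quiescent arrays stood far above every non-myogenic array, with a difference of 5.56 ± 0.20 (limma, adjusted p = 2.9e-10). The members in the other direction were Erbb3, a neuregulin receptor also made by Schwann cells, at -0.76 ± 0.29, and Sdc3, a syndecan, at -0.61 ± 0.15. The call of Sdc3 was lost with the mean of probe sets (-0.09, limma adjusted p = 0.633). The call of Erbb3 was lost when quiescent replicate 1, 2, 3 or 4 or non-myogenic replicate 2, 3 or 4 was left out (-0.84 to -0.66, limma adjusted p = 0.0532 to 0.0933).

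The myogenic regulatory factors, basic helix-loop-helix proteins that commit cells to muscle, were present in the quiescent fraction directly after the sort. Myf5 read 1858, 907, 4566 and 3234 in quiescent and 14.0, 7.61, 5.21 and 14.0 in non-myogenic samples. At this pseudocount it showed the largest difference on the quiescent side, 6.60 ± 0.37 (limma, adjusted p = 1.1e-08), with no overlap of the groups. Myod1 read 1316, 813, 1399.9 and 1580.4 on quiescent arrays and 38.1, 40.9, 33.2 and 32.6 on non-myogenic arrays. All quiescent arrays lay above all non-myogenic ones, and the difference was 4.73 ± 0.19 (limma, adjusted p = 4.9e-10). Myog, the factor of terminal differentiation, was called too, at 2.54 ± 0.41, with quiescent readings of 611, 477, 302 and 435 and non-myogenic readings of 90.4, 25.7, 35.5 and 50.0.

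Of 24 tested myogenic transcription factors, 14 were higher in quiescent cells, 4 lower, and 6 did not pass. Pax3, the paralogue of Pax7, differed by 2.51 ± 0.25, Lbx1, a homeobox factor of migrating limb muscle precursors, by 2.85 ± 0.15, and Msc (musculin), a repressor of myogenic factors, by 3.27 ± 0.33. Pitx3 and Tbx1, which act in muscle development of limb and head, differed by 2.20 ± 0.19 and 1.92 ± 0.19. The opposite members were Meox1 and Meox2, homeobox factors of the somite that are also made by vessel and mesenchymal cells (-2.72 ± 0.30 and -2.43 ± 0.22), Mef2c, a factor shared by muscle and endothelium (-2.52 ± 0.69), and Mrtfa, a coactivator of serum response factor (-0.80 ± 0.19). Srf itself was higher in quiescent cells, by 1.51 ± 0.15. Mef2c differed less within the kits, by -2.29 on small-sample and -2.06 on two-cycle arrays.

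**Figure D2:**
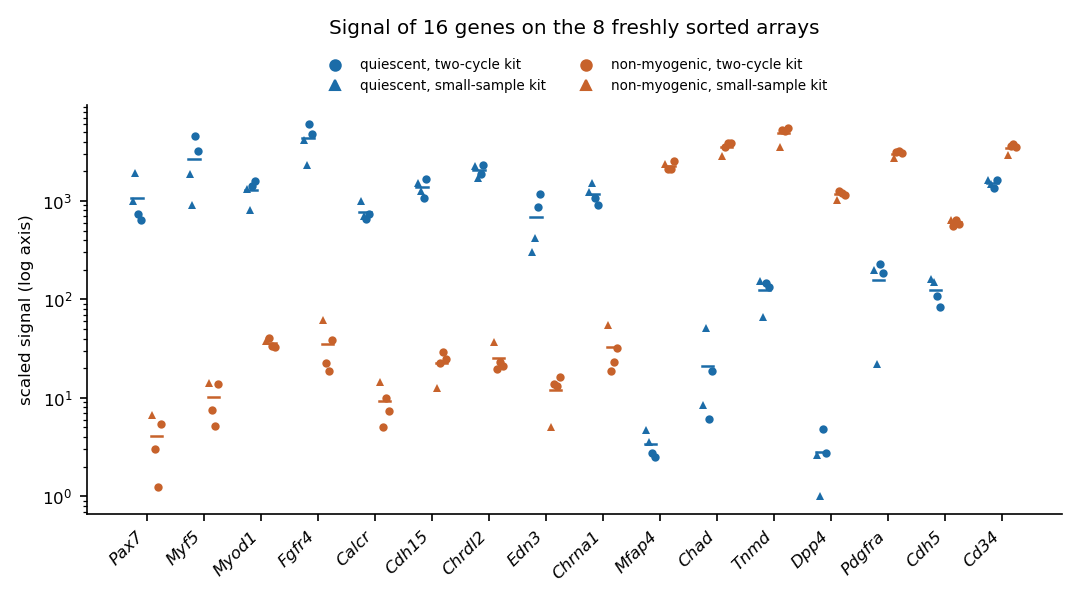
Scaled signal (log axis) of 16 genes on the 8 freshly sorted arrays; blue marks are quiescent and orange marks non-myogenic arrays, circles the two-cycle and triangles the small-sample kit, and bars the group means of 4 arrays. Quiescent marks lie above all non-myogenic marks for Pax7 to Chrna1 and below them for Mfap4 to Cd34, with the narrowest separation for Cd34 (difference -1.19).

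Surface proteins and receptors of satellite cells divided between the fractions. Of 41 tested members, 15 were higher in quiescent and 14 in non-myogenic cells, with a median of -0.25. The shares of all genes were 26.4% and 26.6%. Fgfr4, a fibroblast growth factor receptor of the muscle lineage, read 4114, 2329, 6047 and 4828 in quiescent and 61.7, 22.3, 18.8 and 38.9 in non-myogenic cells. Its groups were far apart, by 6.38 ± 0.39 (limma, adjusted p = 2.3e-08). Calcr, the calcitonin receptor, read 991, 701, 647 and 735 against 14.5, 5.01, 10.0 and 7.29; no non-myogenic array came near the quiescent ones, and the difference was 5.05 ± 0.23. Cdh15 (M-cadherin), which joins satellite cells to the fibre, read 1522, 1260.2, 1067 and 1673 against 12.6, 22.6, 29.5 and 24.6. Its difference was 5.23 ± 0.21 and the arrays did not overlap.

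Adhesion molecules followed. Vcam1, a ligand of integrin alpha 4 beta 1, read 3227, 3281, 5249 and 4921 on quiescent and 281, 174, 133 and 269 on non-myogenic arrays, a difference of 4.24 ± 0.24 with separate groups. Cd82 and Tenm4, a tetraspanin and a teneurin, differed by 4.05 ± 0.24 and 3.98 ± 0.17, and Sdc4, a syndecan that binds growth factors, by 3.39 ± 0.20. Chodl (chondrolectin), a membrane lectin, read 3540.3, 3799, 5781 and 5820.4 against 637, 477, 397 and 571. Both groups had a clear signal of Chodl without overlap, at a difference of 3.16 ± 0.22. Itga7, the laminin-binding integrin of muscle, was the single one of 11 tested integrin genes higher in quiescent cells (2.38 ± 0.18), while 8 were higher in non-myogenic cells, among them Itga6 (-2.35 ± 0.14), Itgb5 (-2.53 ± 0.22) and Itgb1 (-1.17 ± 0.20). The call of Itgb1 was lost with the mean of probe sets (-0.28, limma adjusted p = 0.0684).

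Cd34, a sialomucin used to sort satellite cells, was lower in the quiescent fraction. It read 1611, 1490.0, 1362 and 1641 on quiescent and 2897, 3588, 3822 and 3485 on non-myogenic arrays, where endothelial and interstitial cells are also known to make it. The groups did not overlap, and the difference was -1.19 ± 0.18 (limma, adjusted p = 8.3e-05). Other members on the non-myogenic side were Adgrg1, an adhesion receptor (-2.31 ± 0.35), Sdc2 (-1.62 ± 0.14), Cd81 (-0.91 ± 0.16) and the hedgehog co-receptor Boc (-1.01 ± 0.14), while Cdon, the related receptor of the same family, was higher in quiescent cells (1.74 ± 0.23).

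The postsynaptic acetylcholine receptor apparatus, best known at the neuromuscular junction of the fibre, was represented in quiescent cells. Chrna1, the alpha subunit of the muscle receptor, read 1242, 1504, 1071 and 913 against 55.4, 18.9, 23.3 and 32.3, with a difference of 4.65 ± 0.23 and no overlap. Rapsn, which clusters the receptor, read 798, 864, 699 and 989 against 28.4, 31.9, 16.1 and 27.4. The difference of 4.44 ± 0.20 was also between separate groups. Chrnb1, the beta subunit, and Musk, the kinase that receives agrin, differed by 3.61 ± 0.16 and 2.25 ± 0.19, whereas the embryonic gamma and the delta subunits, Chrng and Chrnd, had differences of 0.07 ± 0.18 and 0.19 ± 0.15 that did not pass. In all, 4 of 11 tested junction genes were higher in quiescent cells and 3 lower, against 26.4% and 26.6% of all genes. The lower ones were Erbb3, Agrn, which encodes agrin (-0.66 ± 0.17), and Lrp4, its receptor (-0.55 ± 0.19). The call of Lrp4 was lost when quiescent replicate 1 or 3 or non-myogenic replicate 3 or 4 was left out (-0.54 to -0.44, limma adjusted p = 0.0582 to 0.082).

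Promoter windows are shown for Chrna1, Edn3 and Cdh15. Among the 15 largest quiescent differences, Chrna1 and Edn3 were those whose window held CAGCTG, an E-box form that myogenic factors are known to prefer. The Cdh15 window held no CAGCTG, and other forms of the E-box were not searched. Each window is the 250 bases before the annotated start from RefSeq on GRCm38.p6, read in the sense of the gene, with CAGCTG in capitals. The motif is its own reverse complement, so both strands were searched at once. The windows are Chrna1 at chr2:73580339-73580588 on the minus strand, Edn3 at chr2:174760369-174760618 on the plus strand and Cdh15 at chr8:122848124-122848373 on the plus strand.
Chrna1: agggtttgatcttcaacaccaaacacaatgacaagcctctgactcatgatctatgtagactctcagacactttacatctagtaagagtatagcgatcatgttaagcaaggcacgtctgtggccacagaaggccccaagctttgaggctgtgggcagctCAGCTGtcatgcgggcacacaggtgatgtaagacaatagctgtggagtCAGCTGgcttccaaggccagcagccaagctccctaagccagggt
Edn3: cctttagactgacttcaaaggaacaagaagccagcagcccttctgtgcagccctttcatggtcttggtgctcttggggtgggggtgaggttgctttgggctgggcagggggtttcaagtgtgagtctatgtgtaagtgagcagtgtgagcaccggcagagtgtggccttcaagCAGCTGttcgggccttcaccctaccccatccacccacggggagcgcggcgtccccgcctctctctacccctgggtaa
Cdh15: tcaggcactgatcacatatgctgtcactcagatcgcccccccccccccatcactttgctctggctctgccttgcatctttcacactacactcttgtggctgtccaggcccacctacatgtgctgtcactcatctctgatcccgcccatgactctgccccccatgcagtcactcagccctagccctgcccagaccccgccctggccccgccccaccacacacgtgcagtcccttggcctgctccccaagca
Chrna1 held 2 matches, 92 and 44 bases before the start, and Edn3 held 1, at 77 bases. Of the 15 genes, 11 had a window in the table and 2 of these held the motif. Over all windows the share was 13.0%, over genes tested 13.6%, over genes at least 2-fold higher in quiescent cells 12.1% and over those at least 2-fold higher in non-myogenic cells 17.4%. A match describes these letters alone.

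Other members of the 15 largest quiescent differences belong to no single pathway. Asb5, an ankyrin repeat protein of the SOCS box family, read 1889.7, 2269.8, 1529 and 1165 against 25.9, 24.6, 28.5 and 23.2, and Prkcq, protein kinase C theta, read 1060.0, 1986, 1652 and 1666 against 14.5, 60.2, 43.3 and 36.8. Both had separate groups, at 5.26 ± 0.16 and 5.03 ± 0.24. Edn3 (endothelin 3), a secreted peptide, read 301, 415, 859 and 1169 in quiescent cells, with both small-sample arrays below both two-cycle arrays, and 5.05, 13.8, 13.3 and 16.5 in non-myogenic cells, a difference of 4.72 ± 0.29. Hs6st2, a heparan sulfate sulfotransferase, and Col19a1, a fibril-associated collagen, differed by 4.78 ± 0.27 and 4.34 ± 0.31. Col19a1 read 377, 541, 284 and 340.4 on quiescent arrays and at most a few units on non-myogenic ones (1.17, 3.21, 1.86 and 1.60).

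Notch signalling passes between neighbouring cells, and in satellite cells it holds the quiescent state. Among ligands, Dll1 was higher in quiescent cells (0.91 ± 0.27), while Dll4, the ligand of arterial and tip endothelial cells, and Jag2 were lower (-1.65 ± 0.18 and -0.84 ± 0.16). The call of Dll1 was lost without quiescent replicate 4 (0.66, limma adjusted p = 0.0601). The receptors Notch1, Notch2 and Notch3 were higher in quiescent cells, by 0.83 ± 0.26, 0.57 ± 0.15 and 1.56 ± 0.34, and the endothelial receptor Notch4 lower, by -1.81 ± 0.19. The call of Notch2 was lost without the kit term (0.49, limma adjusted p = 0.054) and without scaling (0.18, limma adjusted p = 0.492). The call of Notch1 was lost without non-myogenic replicate 1 (0.66, limma adjusted p = 0.0865). Notch3 read 2009.8, 2269, 1878 and 1580.0 on quiescent and 864, 473, 582 and 367 on non-myogenic arrays, so the mixed fraction also had signal but no array reached the quiescent ones. Heyl, a Notch target and transcriptional repressor, read 2408, 3138, 1446 and 1899.5 against 223, 112, 185 and 97.6. It had the largest difference of 12 tested nuclear effectors, 3.54 ± 0.35 (limma, adjusted p = 2.2e-06), and its arrays did not overlap.
The related Hey1 differed by 1.08 ± 0.22, whereas Hes1 had a difference of 0.25 ± 0.35 that did not pass (95% interval -0.50 to 1.00). The call of Hey1 was lost without the kit term (0.76, limma adjusted p = 0.195). Nrarp, a target that feeds back on the pathway, and Dtx2 were lower in quiescent cells (-2.24 ± 0.22 and -0.87 ± 0.13). Rbpj, the DNA-binding partner of the cleaved receptor, differed by 0.58 ± 0.21. The call of Rbpj was lost when quiescent replicate 3 or 4 or non-myogenic replicate 1, 2 or 3 was left out (0.41 to 0.63, limma adjusted p = 0.0605 to 0.148). In all, 6 of 12 effectors were higher and 2 lower.

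Bone morphogenetic proteins are secreted ligands that induce Id genes, and the fractions held different ligands and inhibitors. Of 13 tested ligands and inhibitors, 9 were higher in non-myogenic and 3 in quiescent cells. Chrdl2, a chordin-like inhibitor, read 2273, 1688, 1889 and 2302 in quiescent and 36.8, 19.4, 23.3 and 21.0 in non-myogenic cells. Its difference of 5.61 ± 0.18 (limma, adjusted p = 1.2e-10) was between separate groups. Bmp4 and Bmp6 were also higher in quiescent cells, by 1.31 ± 0.19 and 1.22 ± 0.17. Bmp6 read 1635, 2077, 1680.3 and 1954 against 612, 779, 934 and 805, without overlap. On the non-myogenic side were Gdf10 (-3.79 ± 0.41), Bmp5 (-3.22 ± 0.20), the activin and BMP inhibitor Fst (-3.12 ± 0.47) and Bmp7 (-1.66 ± 0.29). Bmp2 differed by -0.76 ± 0.21. The call of Bmp2 was lost without non-myogenic replicate 1 (-0.51, limma adjusted p = 0.0609). Of the receptors and targets, Id3 and the activin receptor Acvr2b were higher in quiescent cells (1.65 ± 0.23 and 1.39 ± 0.17), and Acvrl1, the receptor of endothelial cells, and Acvr2a were lower (-2.92 ± 0.23 and -0.88 ± 0.27). The call of Acvr2a was lost without non-myogenic replicate 1 (-0.81, limma adjusted p = 0.0586).

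Within the transforming growth factor beta axis, 3 of 16 tested genes were higher in quiescent cells, 6 were lower and 7 did not pass. Of all genes, 26.4% were higher and 26.6% lower. The 3 higher ones were Tgif1 and Skil, nuclear repressors of the pathway (3.03 ± 0.28 and 1.70 ± 0.16), and the receptor Tgfbr1 (0.79 ± 0.14). The call of Tgfbr1 was lost without scaling (0.40, limma adjusted p = 0.127). Tgif1 read 839, 937, 679 and 630.4 against 131, 40.3, 34.1 and 114, with no overlap. The type II receptor Tgfbr2 was lower (-2.08 ± 0.27), as were Inhba, an activin subunit (-2.27 ± 0.27), and Tgfbi, an induced matrix protein (-4.42 ± 0.21).

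Wnt ligands and their secreted inhibitors lay mostly on the non-myogenic side, where 8 of 10 tested were higher, with a median of -3.36. Wif1 and the frizzled-related proteins Sfrp2 and Sfrp4, which bind Wnts outside the cell, differed by -4.67 ± 0.22, -4.53 ± 0.20 and -3.97 ± 0.18. Sfrp2 read 43.7, 31.3, 37.8 and 25.6 on quiescent and 1599, 851, 753 and 964 on non-myogenic arrays. The arrays were far apart in both kits. Among ligands, Wnt2, Wnt5a and Wnt11 were lower in quiescent cells (-3.71 ± 0.26, -3.40 ± 0.29 and -2.35 ± 0.18). Wnt4 ran the other way, at 332, 469, 309.8 and 327 in quiescent and 34.1, 42.9, 61.0 and 39.0 in non-myogenic cells. Its groups did not overlap, and the difference was 2.59 ± 0.25 (limma, adjusted p = 1.6e-06). Of the receptors, Fzd3 was higher in quiescent cells (1.08 ± 0.24) and Fzd2, Fzd6 and Fzd7 lower (-2.69 ± 0.16, -1.86 ± 0.31 and -1.57 ± 0.18).

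Of 26 tested genes of fibroblast and insulin-like growth factor signalling, 11 were higher in non-myogenic cells, 4 in quiescent cells and 11 did not pass, with a median of -0.33. Fgfr4, given above with the surface receptors, is not in this list and was higher in quiescent cells (6.38 ± 0.39). The ligands Fgf18, Fgf1, Fgf7 and Igf1 differed by -2.87 ± 0.26, -2.60 ± 0.20, -1.90 ± 0.13 and -1.52 ± 0.32, and the binding proteins Igfbp6 and Igfbp3 by -4.84 ± 0.28 and -3.28 ± 0.31. On the quiescent side stood Spry1 and Spred1, which restrain the kinase cascade below the receptors (1.13 ± 0.24 and 0.82 ± 0.19), and Irs2, the insulin receptor substrate (1.95 ± 0.33). The call of Spred1 was lost without scaling (0.43, limma adjusted p = 0.12). Spry4, a relative of Spry1, differed by 0.86 ± 0.32. The call of Spry4 was lost when quiescent replicate 1, 3 or 4 or non-myogenic replicate 2 or 3 was left out (0.63 to 0.87, limma adjusted p = 0.0564 to 0.099). Spry1 has been tied to the return of satellite cells to rest. Igf2, an imprinted growth factor, had a difference of -0.20 ± 0.38 that did not pass (95% interval -1.03 to 0.63).

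**Figure D3:**
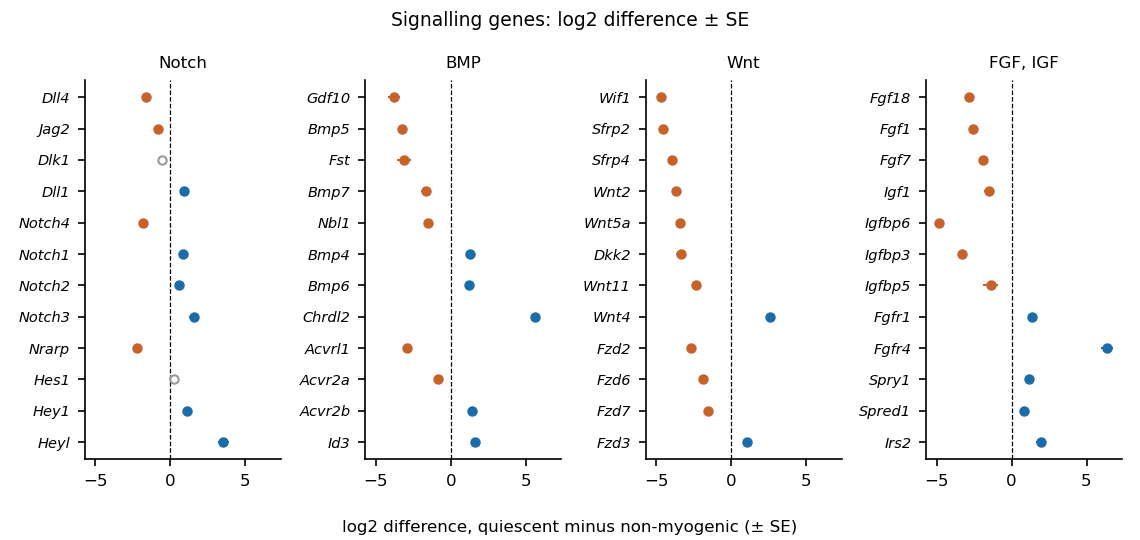
Log2 difference, quiescent minus non-myogenic, ± standard error of the limma fit, for 12 selected genes each of Notch, BMP, Wnt and FGF or IGF signalling; filled blue and orange points were called higher in quiescent and in non-myogenic cells, and open grey points did not pass. Notch3, Chrdl2 and Fgfr4 lie right of 0, as do the ligands Dll1, Bmp4, Bmp6 and Wnt4. Other receptors and inhibitors lie on both sides, with Notch1, Acvr2b, Fzd3 and Spry1 among those right of 0 and Notch4, Acvrl1, Fzd2 and Fst among those left of it. Wif1, Sfrp2 and Igfbp6 lie farthest left in their panels.

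Genes that restrain growth were higher in quiescent cells for 15 of 28 tested and lower for 5, with a median of 0.81 (0.42 on small-sample and 1.05 on two-cycle arrays). Peg3, a paternally expressed zinc finger gene, read 4632, 4432, 7681 and 6483 against 1093, 1179, 1191 and 1181. Its groups were separate, at 2.38 ± 0.14. Btg1, Btg2 and Tob2, antiproliferative proteins that act on messenger RNA decay, differed by 1.70 ± 0.23, 1.68 ± 0.41 and 1.39 ± 0.29, the kinase inhibitors Cdkn2b and Cdkn2c by 1.54 ± 0.26 and 1.11 ± 0.19, and Foxo1 and Foxo3 by 1.01 ± 0.26 and 1.09 ± 0.22. The call of Foxo1 was lost without scaling (0.63, limma adjusted p = 0.0846). Cdkn1c (p57) was lower, by -0.85 ± 0.24, with overlapping arrays and within-kit differences of -0.32 and -1.09, as was Gadd45g, by -1.44 ± 0.25; Cdkn1a (p21) had a difference of 0.54 ± 0.22 that did not pass but was called without non-myogenic replicate 4 or activated replicate 1 (0.76 and 0.55, limma adjusted p = 0.00158 and 0.0478). The call of Cdkn1c was lost without the kit term (-0.63, limma adjusted p = 0.181).

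Of 36 tested cell cycle and replication genes, 22 were higher in quiescent cells, 2 lower and 12 did not pass; the median was 0.66. Mcm7 of the replicative helicase differed by 1.76 ± 0.18, Ccnd1 (cyclin D1) by 1.53 ± 0.28 and the spindle checkpoint kinase Bub1b by 2.11 ± 0.20. Mcm2, another helicase subunit, differed by 0.93 ± 0.31. The call of Mcm2 was lost when quiescent replicate 4 or non-myogenic replicate 4 was left out (0.83 to 0.89, limma adjusted p = 0.0546 to 0.0593). Bub1b read 143, 104, 96.6 and 106 against 9.43, 20.6, 7.07 and 23.3 on the scale where the mean array signal is 235. These quiescent readings were low but above every non-myogenic one. Ccnd2 (cyclin D2) was opposite, at 189, 183, 104 and 129 against 1454, 1726, 1497 and 1391. Its difference was -3.38 ± 0.28 (limma, adjusted p = 3.3e-07), and the groups did not overlap.

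Seen from the other side, the cells left after removal of satellite cells and leukocytes had the transcripts of tendon, interstitial, vascular and mural cells. All 11 tested tenocyte markers were higher in the non-myogenic fraction, with a median of -5.05 (-4.91 on small-sample and -4.95 on two-cycle arrays). Chad (chondroadherin) read 8.54, 50.9, 6.16 and 18.7 in quiescent and 2872, 3514, 3880.3 and 3852 in non-myogenic samples, and Tnmd (tenomodulin), a membrane glycoprotein of tendon, read 153, 66.9, 147 and 135 against 3506, 5213, 5144 and 5540.1. The groups were far apart for both, at -6.80 ± 0.29 and -5.10 ± 0.23. Kera and Fmod, proteoglycans of dense connective tissue, differed by -5.57 ± 0.18 and -5.12 ± 0.27, Comp by -5.05 ± 0.17 and Cpxm2 by -5.08 ± 0.19.

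Interstitial fibroblasts and fibroadipogenic progenitors were represented as fully. Each of 26 tested markers was higher in non-myogenic cells, with a median of -3.32. Pi16, a marker of adventitial fibroblasts, read 37.9, 6.11, 61.7 and 45.1 against 3277, 5147, 5202 and 4970.5, and Dpp4, a surface peptidase of the same cells, 2.62, 1.02, 4.84 and 2.73 against 1027, 1268, 1206 and 1143. All quiescent arrays lay far below all non-myogenic ones for both, and the differences were -6.49 ± 0.31 and -6.04 ± 0.13. Col3a1, a fibrillar collagen, and Gsn (gelsolin), an actin-severing protein, had the largest adjusted p of the list (-0.60 ± 0.23 and -1.03 ± 0.40). The call of Col3a1 was lost when quiescent replicate 1 or 2 or non-myogenic replicate 2, 3 or 4 was left out (-0.59 to -0.53, limma adjusted p = 0.0693 to 0.0915). The call of Gsn was lost when quiescent replicate 1 or 2 or non-myogenic replicate 1, 2, 3 or 4 was left out (-1.11 to -0.71, limma adjusted p = 0.0648 to 0.092). Cd248 (endosialin) differed by -6.48 ± 0.25. Pdgfra, which marks fibroadipogenic progenitors, read 199, 21.9, 227 and 187 on quiescent and 2716, 3147, 3183 and 3047 on non-myogenic arrays. Quiescent replicate 2 lay well below the other 3 quiescent arrays for Pdgfra, and all 4 lay far below the non-myogenic arrays (difference -4.30 ± 0.42). Dcn (decorin) still had a clear signal in the quiescent fraction, 3148, 1191, 2509.9 and 3002 against 7073, 12744, 15114 and 13824, and again quiescent replicate 2 was lowest.

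Endothelial markers were higher in non-myogenic cells for 26 of 30 tested, with a median of -1.79, a smaller distance than for the tendon and fibroblast lists. Kdr, the main receptor of vascular endothelial growth factor, read 398, 339, 185 and 239 against 3593, 2696, 2455 and 2418. Cdh5, the cadherin of endothelial junctions, read 162, 150.4, 108 and 84.0 against 647, 559, 646 and 589. Both had separate groups (-3.41 ± 0.14 and -2.32 ± 0.16), and both had signal in the quiescent arrays. Pecam1 differed by -1.31 ± 0.18. Vwf (von Willebrand factor) read 579.9, 221, 1583 and 1457 in quiescent and 510.1, 676, 671 and 675 in non-myogenic samples, and Plvap, a protein of fenestrae, 552, 259, 457 and 689 and 691, 297, 376 and 458. Their arrays overlapped and neither difference passed (0.46 ± 0.37 and 0.00 ± 0.33). The summed signal of the 30 markers ran from 11756 to 19695 on quiescent and from 35469.6 to 45648 on non-myogenic arrays. Without quiescent replicate 2, the lowest for Vwf, Vwf was called higher in quiescent cells (0.84, limma adjusted p = 0.00985). The part of endothelial RNA in the values of the quiescent arrays was not tested. Lmo2, a nuclear adaptor of blood and vessel cells, was the single marker higher in quiescent cells (0.70 ± 0.15). The call of Lmo2 was lost without scaling (0.33, limma adjusted p = 0.218).

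Mural cell markers split: 11 of 15 were higher in non-myogenic and 2 in quiescent cells. Myh11, the smooth muscle myosin, and Pdgfrb, the receptor of pericytes, differed by -3.14 ± 0.45 and -2.99 ± 0.32, whereas Notch3 and Des (desmin), which satellite cells share with mural cells, ran the other way (Des 2.37 ± 0.34). Acta2, smooth muscle actin, read 4806, 2943, 5359 and 5828 on quiescent and 3236, 9159, 10436 and 4837 on non-myogenic arrays. Its groups overlapped, and the difference of -0.38 ± 0.38 did not pass (limma, adjusted p = 0.41; 95% interval -1.19 to 0.43). Of 7 tested Schwann cell markers, 3 were higher in non-myogenic cells, Cnp, Ncmap and Pmp22 (-1.88 ± 0.21, -1.07 ± 0.21 and -1.05 ± 0.29), and Sox10, the defining factor, had a difference of 0.37 ± 0.25 that did not pass. Of 5 tested adipocyte genes, 3 were higher there, led by Pparg (-2.24 ± 0.30), and Car3, a carbonic anhydrase of fat and muscle, differed by -2.21 ± 0.79. Car3 differed less within the kits, by -2.03 on small-sample and -1.78 on two-cycle arrays. The call of Car3 was lost when quiescent replicate 1 or 2 or non-myogenic replicate 2 or 3 was left out (-2.16 to -1.79, limma adjusted p = 0.0565 to 0.0779).

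**Figure D4:**
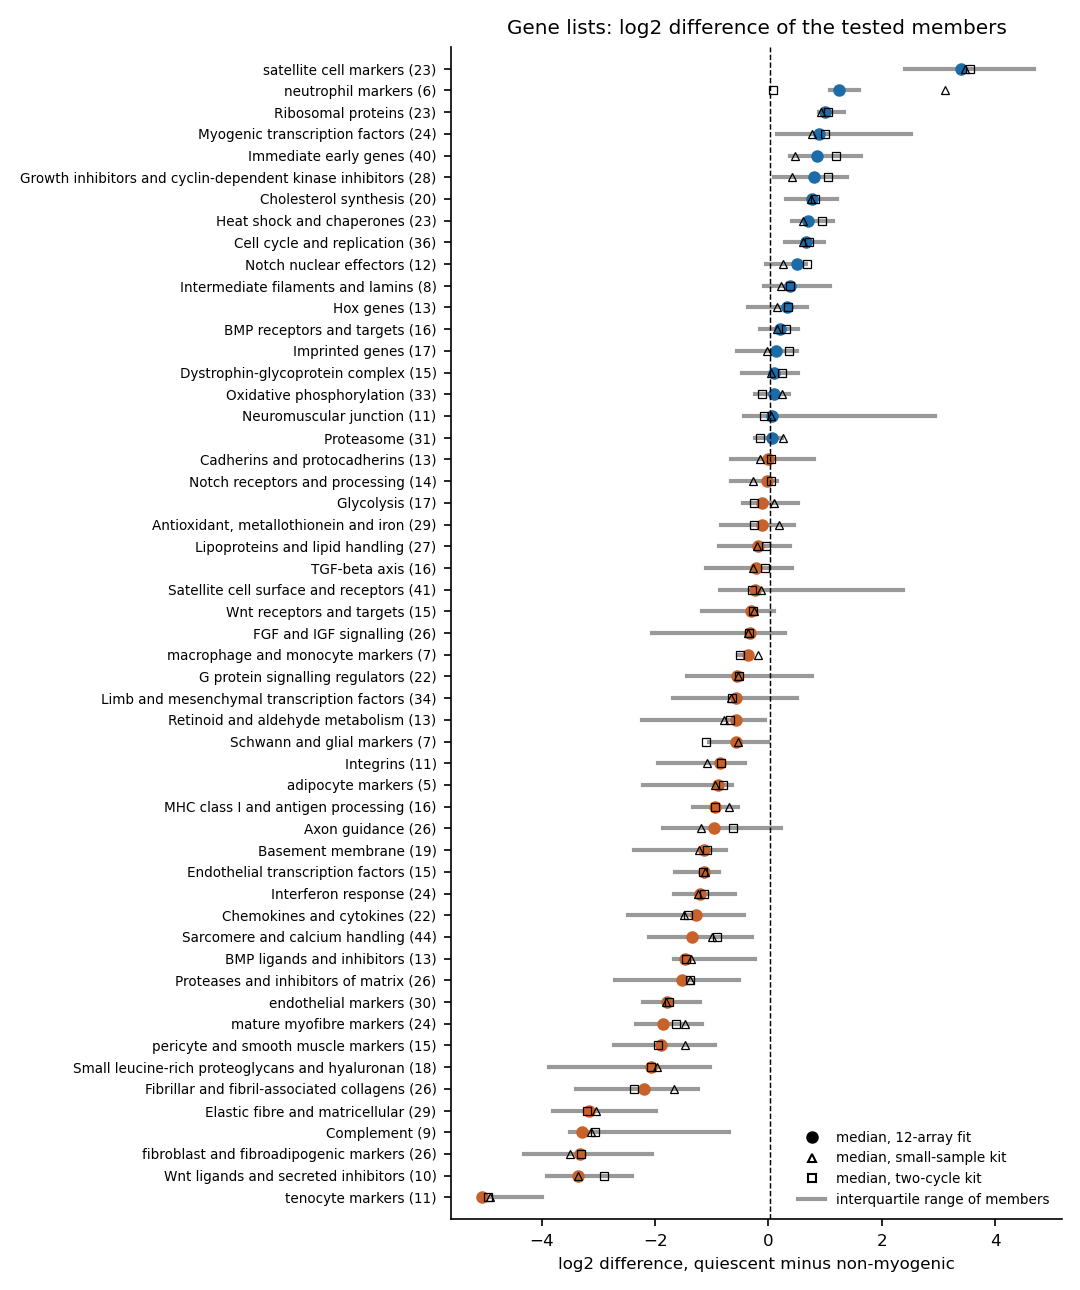
Median log2 difference, quiescent minus non-myogenic, of the tested members of each gene list with at least 5 of them (number in brackets); filled points are the 12-array fit, triangles the median on small-sample arrays and squares that on two-cycle arrays, grey bars the interquartile range of members, and the dashed line the median of all genes (0.03). Satellite cell markers (3.39) lie highest and tenocyte markers (-5.05) lowest; for neutrophil markers the kits lie farthest apart (3.12 and 0.08).

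Extracellular matrix genes made up the broadest block on the non-myogenic side. Of 26 tested collagens and their processing enzymes in the list, 24 were higher in non-myogenic cells, with a median of -2.20. The list does not hold Col19a1, the fibril-associated collagen that was higher in quiescent cells (4.34 ± 0.31). Col14a1, Col1a1 and Col6a3 differed by -4.54 ± 0.25, -3.57 ± 0.39 and -3.37 ± 0.38. Of 29 elastic fibre and matricellular genes, 28 were higher there. Mfap4, a glycoprotein of elastic fibres, read 4.68, 3.57, 2.78 and 2.48 on quiescent and 2347, 2108, 2109 and 2549 on non-myogenic arrays. Its difference of -7.00 ± 0.12 (limma, adjusted p = 1.9e-13) was the largest of the comparison at this pseudocount, which exceeds its quiescent readings and so sets the size. With a pseudocount of 1/4 of the scaled mean it was -5.24 and that of Pi16 larger, -5.54. Mfap5, Fbln5 and Fn1 (fibronectin) differed by -4.89 ± 0.23, -3.80 ± 0.30 and -3.42 ± 0.30.

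Basement membrane genes, whose products form the sheet that overlies satellite cells, were higher in non-myogenic cells for 17 of 19 tested. Lama4, the laminin chain of vessels, read 16.7, 15.6, 109 and 102 against 1367, 2356, 2003 and 2292. Its quiescent arrays fell into 2 pairs by labelling kit, and all were far below the non-myogenic ones (-4.81 ± 0.32). Nid1 (nidogen) differed by -2.99 ± 0.25 and Lama2, the laminin chain of the muscle basement membrane, by -0.85 ± 0.28. Lama3, an epithelial laminin chain, was the exception, at 234, 291, 132 and 164 against 124, 87.4, 106 and 69.3. The groups were close without overlap (0.82 ± 0.17). The call of Lama3 was lost without scaling (0.52, limma adjusted p = 0.0511).

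Proteoglycan and hyaluronan genes were higher in non-myogenic cells for 15 of 18 tested, and matrix proteases and their inhibitors for 20 of 26. Ctsk (cathepsin K), a collagen-degrading protease, differed by -4.29 ± 0.19 and Timp3, a metalloprotease inhibitor, by -3.33 ± 0.19; Adamts4, an aggrecanase, was the one member higher in quiescent cells (0.70 ± 0.27). The call of Adamts4 was lost when quiescent replicate 1, 2, 3 or 4 or non-myogenic replicate 2 or 3 or activated replicate 3 was left out (0.51 to 0.73, limma adjusted p = 0.0516 to 0.115).

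Genes of innate immunity were higher in the CD45-negative non-myogenic cells. Of 9 tested complement genes, 7 were higher there, with C1s1, C1ra and C2 of the early cascade at -3.83 ± 0.25, -3.34 ± 0.33 and -3.50 ± 0.25. Of 22 chemokine and cytokine genes, 14 were higher there. Ccl11 (eotaxin) read 68.3, 33.6, 60.2 and 70.2 against 1722, 1069, 1299 and 1541, with separate groups (-4.31 ± 0.20), and Il33, an alarmin of stromal cells, and Cxcl12, the ligand of Cxcr4, differed by -3.75 ± 0.13 and -2.20 ± 0.20. Cxcr4 itself was higher in quiescent cells, by 2.38 ± 0.27. The chemokines on the quiescent side were Cx3cl1 (0.53 ± 0.17) and Ccl4 (0.59 ± 0.22). The call of Cx3cl1 was lost when quiescent replicate 3 or 4 or non-myogenic replicate 3 was left out (0.44 to 0.45, limma adjusted p = 0.0596 to 0.0786). The call of Ccl4 was lost when quiescent replicate 2 or 3 or non-myogenic replicate 1 or 2 was left out (0.41 to 0.53, limma adjusted p = 0.0854 to 0.171).

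Interferon-response genes were higher in non-myogenic cells for 18 of 24 tested, with a median of -1.21, and genes of antigen presentation by class I molecules for 13 of 16, with a median of -0.94. Bst2 (tetherin) and Ifit3 differed by -2.42 ± 0.23 and -2.10 ± 0.16. The immunoproteasome subunit Psmb8 differed by -1.90 ± 0.21 and B2m, the light chain of class I molecules, by -1.22 ± 0.22. Irf8, an interferon regulatory factor best known in myeloid cells, was the one gene of the interferon list higher in quiescent cells (1.53 ± 0.26). It read 235, 317, 208 and 183 on quiescent and 89.0, 35.4, 55.5 and 102 on non-myogenic arrays, without overlap.

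Blood cell transcripts were few but not evenly spread. Of 24 macrophage and monocyte markers on the array, 7 passed the signal filter and none of these 7 was called by limma (2 at an unadjusted p under 0.05); Ptprc, which encodes CD45, was below the filter, with means of 27.8 in quiescent and 27.5 in non-myogenic cells. Neutrophil granule transcripts were highest on quiescent replicate 1 and also raised on replicate 2. Ngp read 2197, 418, 68.4 and 59.7 on quiescent and 52.5, 49.5, 30.6 and 48.6 on non-myogenic arrays. S100a8 read 1220.1, 116, 25.5 and 25.3 against 26.6, 12.9, 10.9 and 20.4. For both, quiescent replicates 3 and 4 lay near the non-myogenic level. Replicates 1 and 2 were the quiescent arrays of the small-sample kit, and the part of the kit was not tested. The summed signal of 6 neutrophil markers was 5921, 820, 178 and 141 on quiescent arrays and 178, 170, 141 and 152 on non-myogenic ones.
Ngp and Ltf were called, at 1.83 ± 0.64 and 1.36 ± 0.44, and without quiescent replicate 1 they stood at 1.14 ± 0.388 and 0.91 ± 0.293 (limma, adjusted p = 0.0267 and 0.0212). The median of the 6 markers was 1.25, and 0.55 without that array. S100a8 did not pass (1.68 ± 0.71), but was called without quiescent replicate 1, 3 or 4 (0.86, 2.15 and 2.15, limma adjusted p = 0.0433, 0.0403 and 0.0381). The call of Ngp was lost without non-myogenic replicate 1 (1.23, limma adjusted p = 0.168). The call of Ltf was lost without non-myogenic replicate 1 (1.33, limma adjusted p = 0.0589). The part of neutrophil RNA in other values of quiescent replicates 1 and 2 was not tested. Without replicate 1, 2088 genes were called higher in quiescent and 2042 in non-myogenic cells, and without replicate 2, 2057 and 2013. Alas2, the erythroid haem synthesis enzyme, was on the other side, at 18.9, 3.20, 5.13 and 2.73 in quiescent and 249, 735, 874 and 418 in non-myogenic cells (-4.55 ± 0.32).

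**Figure D5:**
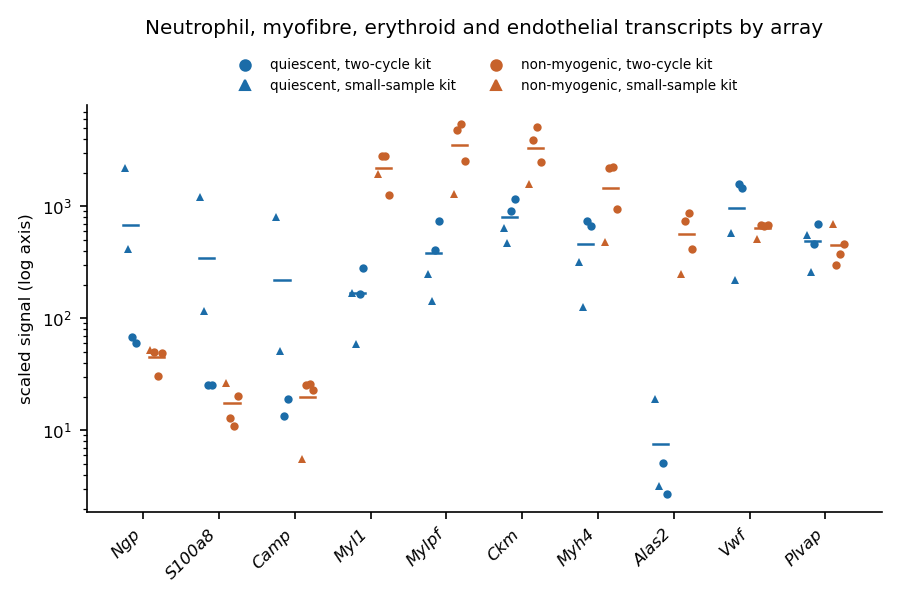
Scaled signal (log axis) of 10 transcripts of neutrophils (Ngp, S100a8, Camp), muscle fibres (Myl1, Mylpf, Ckm, Myh4), erythroid cells (Alas2) and endothelium (Vwf, Plvap) on the 8 freshly sorted arrays, drawn with the colours and marks of the plot of 16 genes. Quiescent replicate 1 is the highest triangle for Ngp, S100a8 and Camp. Ngp, Myl1, Ckm and Alas2 are among the transcripts that separate the groups, and Vwf and Plvap overlap.

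Transcripts of mature fibres were higher in the non-myogenic fraction, although it holds under 1% myogenic cells by label. Of 24 tested myofibre markers, 15 were higher in non-myogenic cells and 9 did not pass. The fitted median was -1.87, outside both within-kit medians, -1.47 on small-sample and -1.64 on two-cycle arrays. Myl1, a myosin light chain, read 169, 58.7, 165 and 283 on quiescent and 1956, 2783, 2786 and 1263 on non-myogenic arrays, without overlap (-4.12 ± 1.09). Ckm, the muscle creatine kinase, read 637, 469, 907 and 1170.2 against 1595, 3909, 5138 and 2484, a difference of -1.96 ± 0.49. The summed signal of the list ran from 4736 to 13904 on quiescent and from 18431 to 53429.5 on non-myogenic arrays. Both fractions thus had fibre transcripts, and the part of fibre fragments or free fibre RNA in them was not tested.

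Within the broader list of sarcomere and calcium handling genes, 19 of 44 were higher in non-myogenic and 2 in quiescent cells. The quiescent ones were Tnnt1, slow troponin T (0.97 ± 0.26), and Ankrd1, a stretch-responsive ankyrin repeat protein. Ankrd1 read 724, 408, 652 and 642 against 27.9, 16.3, 17.5 and 19.9. Its arrays did not overlap, at 4.14 ± 0.18 (limma, adjusted p = 1.5e-09). The call of Tnnt1 was lost without non-myogenic replicate 1 (0.65, limma adjusted p = 0.0504). In the dystrophin-glycoprotein complex, 4 of 15 members were higher in quiescent and 4 in non-myogenic cells, near the shares of all genes (26.4% and 26.6%). The median was 0.09 and turned to -0.27 without scaling. Dmd, Dag1 and Sgca, which encode dystrophin, dystroglycan and alpha-sarcoglycan, were higher in quiescent cells (0.93 ± 0.21, 1.80 ± 0.30 and 1.90 ± 0.31). Sgce, the epsilon-sarcoglycan of non-muscle tissue, was higher in non-myogenic cells (-1.17 ± 0.17). The call of Dmd was lost without scaling (0.57, limma adjusted p = 0.0714).

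Immediate early genes, which respond within minutes to growth factors and stress and are known to be induced when muscle is dissociated, differed between the fractions. Of 40 tested, 20 were higher in quiescent cells, 3 lower and 17 did not pass; the median was 0.85, with 0.47 on small-sample and 1.18 on two-cycle arrays. Fos, the type member of the group, read 6868, 7292, 16656 and 15135 on quiescent and 5216, 8542, 9313 and 12165 on non-myogenic arrays. Its groups overlapped and the difference of 0.37 ± 0.60 did not pass (limma, adjusted p = 0.622), though it did without activated replicate 1 (0.54, limma adjusted p = 0.0339). Cebpb and Maff, leucine zipper factors, differed by 2.37 ± 0.31 and 2.81 ± 0.31, the AP-1 member Junb by 1.62 ± 0.35 and Egr2 by 2.64 ± 0.47. Trib1, a pseudokinase, read 496, 2014, 157 and 515 against 89.2, 2.71, 5.58 and 36.8, a wide spread within both groups (3.69 ± 0.63).
The opposite members were Ptgs2 (cyclooxygenase 2), at 42.3, 22.2, 17.1 and 0.744 against 1108, 162, 161 and 595, the shear-responsive endothelial factor Klf2 (-2.56 ± 0.29) and Ier5 (-0.78 ± 0.29). The call of Ier5 was lost when quiescent replicate 3 or 4 or non-myogenic replicate 1 was left out (-0.84 to -0.62, limma adjusted p = 0.0585 to 0.124). Ptgs2 was spread widely over the non-myogenic arrays, all of them above the quiescent ones (-3.88 ± 0.53).

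Heat shock and chaperone genes were higher in quiescent cells for 14 of 23 tested and lower for 1, with a median of 0.70. Dnajb1, a co-chaperone, and Hsph1 differed by 2.02 ± 0.22 and 1.58 ± 0.21; the exception was Hspb8, a small heat shock protein of muscle and vessel wall, at -3.19 ± 0.27. Ribosomal protein genes were higher in quiescent cells for 22 of 23, with a median of 1.00, 0.55 under quantile normalization and 0.60 without scaling. Rps25 read 1163, 1149.6, 1537 and 1123 against 236, 245, 215 and 327, with separate groups (2.26 ± 0.16). Ribosomal protein genes have many near-identical processed copies, so their probe sets are uncertain as to source.

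Enzymes of cholesterol synthesis were higher in quiescent cells for 12 of 20 tested, with a median of 0.77. Lss, lanosterol synthase, differed by 1.70 ± 0.24, Fdft1, squalene synthase, by 1.46 ± 0.23 and Idi1 by 1.62 ± 0.25. Srebf2, the factor that controls the pathway, had a difference of 0.41 ± 0.18 that did not pass but was called without quiescent replicate 2 (0.53, limma adjusted p = 0.0151).

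Proteasome and respiratory chain genes were close in both fractions. Of 31 tested proteasome genes, 29 had a 95% interval of the difference that lay within 2-fold either way, and of 33 oxidative phosphorylation genes 27 did, against 4554 of all 7960 genes (57.2%). The proteasome list had 3 genes higher in quiescent and 4 in non-myogenic cells, at a median of 0.06. Cox7a1, the respiratory subunit of heart and skeletal muscle, was the largest exception among oxidative genes, at -1.51 ± 0.25, and Cycs (cytochrome c) the largest in the other direction, at 0.96 ± 0.23. Of 17 glycolysis genes, 5 were higher in quiescent and 5 in non-myogenic cells, near the shares of all genes (26.4% and 26.6%). The glucose transporter Slc2a3 led the quiescent side (2.42 ± 0.20). The muscle isoforms Pgam2 and Eno3 led the other side (-3.51 ± 0.64 and -1.81 ± 0.26). Pgam2 differed less within the kits, by -3.09 on small-sample and -3.22 on two-cycle arrays.

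Of 13 tested Hox genes, which record position along the body and limb, 4 were higher in quiescent cells, led by Hoxc8 (1.31 ± 0.21) and Hoxc9 (1.12 ± 0.24), and 3 were lower, Hoxd8 (-0.90 ± 0.18), Hoxd9 (-0.58 ± 0.23) and Hoxb2 (-0.50 ± 0.16). These shares are near those of all genes (26.4% and 26.6%). The median of the Hox list was 0.34, and -0.018 without scaling. Hoxa5 differed by 0.68 ± 0.23. The call of Hoxa5 was lost when quiescent replicate 3 or 4 or non-myogenic replicate 2 was left out (0.49 to 0.65, limma adjusted p = 0.0593 to 0.0966). The call of Hoxd9 was lost when quiescent replicate 1, 3 or 4 or non-myogenic replicate 2, 3 or 4 or activated replicate 1, 2, 3 or 4 was left out (-0.61 to -0.40, limma adjusted p = 0.0509 to 0.19). The call of Hoxb2 was lost when non-myogenic replicate 1 or 3 was left out (-0.46 to -0.45, limma adjusted p = 0.0506 to 0.0691). Of 34 limb and mesenchymal factors, 17 were higher in non-myogenic cells, among them Ebf2 (-3.83 ± 0.20), Twist1 (-3.53 ± 0.27), Osr1 (-3.16 ± 0.33) and Prrx2 (-2.94 ± 0.20). Runx1, known for blood formation and denervated muscle, led those higher in quiescent cells, at 550.5, 1716, 371 and 565 against 68.7, 19.5, 20.6 and 21.7. Quiescent replicate 2 was the highest, and no array crossed between the groups (3.73 ± 0.33). Snai2, Zeb2 and Sox9, better known in mesenchymal and cartilage cells, were also higher in quiescent cells (1.85 ± 0.27, 1.69 ± 0.28 and 1.34 ± 0.13). Of 15 tested endothelial factors, 12 were higher in non-myogenic cells, led in size by Sox18 (-2.78 ± 0.18).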

How the data were processed

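Total RNA of 12 samples was amplified and labelled with biotin by either of 2 kits and hybridised to Affymetrix Mouse 430A arrays, per the labels' protocols. The authors deposited 1 linear intensity per probe set and array, computed with MAS5 per the submitters' processing notes, with settings not given in the sources used here. Deposited trimmed means were 323 to 502 on small-sample and 160.4 to 236 on two-cycle arrays.

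Each array was scaled to a trimmed mean (2% off each tail) of 235, and log2(signal + 14.7) was taken. Of 22690 probe sets, 20380 had 1 gene in the platform annotation, 691 several, 1555 none and 64 were controls; 20351 symbols were checked by gene ID. The probe set with the highest mean stood for its gene, and 7960 of 12393 genes, those whose mean signal reached 47.0, were tested. Detection calls were not used, so single genes have no background limit here; precision is limited by the number of arrays. The limma 3.58.1 fit (R 4.3.3) had terms for group and kit, with 8 residual degrees of freedom; Benjamini-Hochberg adjustment ran over all genes. The fit was checked on simulated data with known changes.

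The comparison, the gene lists and the rules were chosen with earlier results of these data known. Named genes were reference genes, the 15 largest differences each way among genes whose arrays did not overlap, and per list the 5 with the smallest adjusted p, all members where at most 8 were tested, and called members against the list's direction; 196 named genes follow this rule and 55 were chosen after their values were seen. Lists are described by counts and medians, with no set test. Alternatives were the kits alone, no kit term, other pseudocounts, filters, scalings and probe set rules, array weights, a trended robust fit, 8 arrays, the replicate block and each array left out. Replicate numbers were not taken as pairs in the main fit, as the labels do not say whether samples shared animals. Correlations of deviations between same-numbered arrays were 0.39, -0.37, 0.04 and 0.27. These deviations were from group means with the kit left in, and replicate 2 had a different kit in each group. They therefore cannot decide whether samples were paired. Promoters came from RefSeq (GRCm38.p6).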

Additional observations from a re-analysis of the deposited data

Results flagged for a closer look

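In 37 of 506 groups of 4 arrays (7.31%), counted over the log2 levels of the named genes and both 3′ to 5′ ratios, 1 array lay far from the others: its gap to the nearest array, as a share of the group's range, was above 0.829. Chance flags about 5% of such groups. Non-myogenic replicate 1 was the high array for 8 of these genes, with shares of the range as follows: Cdkn1c (0.890), Cxcl12 (0.830), Cxcr4 (0.843), Dll1 (0.869), Fzd7 (0.871), Pdgfrb (0.872), Runx1 (0.932) and Sdc4 (0.887). Non-myogenic replicate 1 was the low array for 13 of these genes, with shares of the range as follows: Camp (0.884), Col3a1 (0.843), Col6a3 (0.879), Fmod (0.858), Kera (0.977), Mcm7 (0.898), Ndn (0.911), Peg3 (0.887), Pi16 (0.901), Pmp22 (0.835), Spry1 (0.891), Tnmd (0.838) and Vwf (0.974). For Apod (0.971), non-myogenic replicate 2 was the low array. For Ngp (0.848), non-myogenic replicate 3 was the low array. For Gdf10 (0.832), non-myogenic replicate 4 was the high array. For Inhba (0.866), non-myogenic replicate 4 was the low array. Quiescent replicate 1 was the low array for 2 of these genes, with shares of the range as follows: Bmp7 (0.950) and Mcm7 (0.896). For Wnt4 (0.838), quiescent replicate 2 was the high array. Quiescent replicate 2 was the low array for 6 of these genes, with shares of the range as follows: Col14a1 (0.940), Pdgfra (0.904), Srf (0.865), Tgfbi (0.922), Tnmd (0.837) and Tob2 (0.891). For Rps25 (0.888), quiescent replicate 3 was the high array. For Osr1 (0.949), quiescent replicate 4 was the high array. Non-myogenic replicate 1 is the single array of its group labelled with the small-sample kit, so kit and sample cannot be told apart there. The 3′ to 5′ ratio of Gapdh was highest on non-myogenic replicate 4, with a share of 0.843.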

How the results depend on the processing

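Counts of called genes depended most on scaling, on the number of arrays and on the probe set rule. Genes higher in quiescent cells numbered 629 with the small-sample arrays only (2 against 1 array of the compared groups), 817 unscaled and 3309 when each probe set counted, and genes higher in non-myogenic cells 996 and 3183 in the first and second of these. At 2-fold or more, 345 genes were higher in quiescent and 1749 in non-myogenic cells unscaled, and 1135 in quiescent cells when each probe set counted. Leaving out 1 array at a time gave 1832 to 2094 genes higher in quiescent cells, 1897 to 2109 in non-myogenic cells, and 658 to 746 and 1065 to 1152 at 2-fold. With the replicate block the counts were 1630 and 1714; same-numbered arrays did not all deviate together, and 2 of 8 arrays correlated best with their own number.

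Of 234 named genes called, 211 kept direction and call without any 1 array, and 164 under each alternative run. With the small-sample arrays only, 62 lost the call and Hoxd9 reversed (0.29). List medians that changed sign were Notch ligands (0.032), the TGF-beta axis (0.014) and limb and mesenchymal factors (0.053) at a signal filter of 0.5 of the trimmed mean, the Hox list (-0.018) and the dystrophin complex (-0.27) unscaled, and the latter with the mean of probe sets (-0.13). Without the kit term 12 named genes lost the call (Cdkn1c, Erbb3, Lrp4, Notch2, Hey1, Hoxb2, Hoxd9, Ccl4, Ier5, Nes, Col3a1 and Gsn), unscaled 20 and with the replicate block 20 (Lama2 and Myh4 besides genes whose lost calls are given above). Fewer genes enter at the higher filter; for the other sign changes the cause was not tested. Genes called in opposite directions by different probe sets numbered 26 of 2791 with several tested, and none is named here. Without detection calls, low signals have no stated limit.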

Other observations

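Of 26 tested axon guidance genes, 15 were higher in non-myogenic and 5 in quiescent cells; the repellents Slit3 and Sema3c and the ephrin Efnb2 differed by -4.64 ± 0.22, -3.36 ± 0.18 and -3.00 ± 0.17, whereas the receptor Plxna2 ran the other way (1.12 ± 0.18). Robo1, a Slit receptor, differed by 0.73 ± 0.23. The call of Robo1 was lost when quiescent replicate 3 or 4 was left out (0.57, limma adjusted p = 0.0677 to 0.07). Of 29 antioxidant, metallothionein and iron genes, 7 were higher in quiescent cells, including Mt1 and Mt2 (1.24 ± 0.28 and 1.13 ± 0.27) and the transferrin receptor Tfrc (1.21 ± 0.21), and 9 in non-myogenic cells, including extracellular superoxide dismutase Sod3 (-2.34 ± 0.32) and Gpx1 (-1.60 ± 0.19); these shares are near those of all genes (26.4% and 26.6%), as are those of the imprinted list. The call of Tfrc was lost with the mean of probe sets (0.42, limma adjusted p = 0.0617). The call of Mt2 was lost without scaling (0.73, limma adjusted p = 0.0574). Enzymes of retinoic acid synthesis, Aldh1a2 and Aldh1a3, were higher in non-myogenic cells (-2.56 ± 0.30 and -3.76 ± 0.22), and 7 of 13 genes of that list were.

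In the lipid list, 5 of 27 genes were higher in quiescent cells, led by Apoe (1.63 ± 0.24), and 10 in non-myogenic cells, led by Apod (-3.59 ± 0.27). For this list and those that follow, the shares of all genes are 26.4% and 26.6%. Among 17 imprinted genes, 5 were higher in quiescent cells, with the non-coding Meg3 at 1.41 ± 0.19, and 4 lower, with Ndn at -2.22 ± 0.19. Rian, a non-coding RNA of the Meg3 locus, differed by 1.13 ± 0.30. Of 13 cadherin and related genes, 4 were higher in quiescent and 5 in non-myogenic cells, the latter led by Cdh11 of mesenchyme (-2.72 ± 0.26). Of 8 intermediate filament and lamin genes, 4 were higher in quiescent cells, with Lmnb2 at 1.65 ± 0.19, and Nes (nestin) was lower, at -0.92 ± 0.25. The call of Nes was lost without the kit term (-0.61, limma adjusted p = 0.313) and with the mean of probe sets (-0.29, limma adjusted p = 0.427). Of 22 G protein signalling genes, 7 were higher in quiescent cells, including the thrombin receptor F2r (1.72 ± 0.15), and 11 in non-myogenic cells, including adrenomedullin, Adm (-3.59 ± 0.22).

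Some genes were close in both fresh fractions and near the bottom of the scale in the cultured cells; 3 are given as values, chosen after they were seen. Itih5, a hyaluronan-binding protein, read 4367, 4050.1, 7932 and 7187 on quiescent, 4339.7, 6405, 7038 and 6609 on non-myogenic and 1.34, 0.703, 9.40 and 7.87 on activated arrays. Prelp, a matrix proteoglycan, read 2798, 2496, 2707 and 3307, 3362, 2833, 3765 and 3846 and 12.2, 12.4, 6.22 and 11.0, and Abca8a, a lipid transporter, 4263, 2837, 6932 and 5626, 3843, 6349, 5177 and 6985 and 25.2, 24.0, 15.4 and 7.65. For each, both fresh groups overlapped, and every activated array lay below all fresh ones. Their 95% intervals of the difference between the fresh fractions were -0.19 to 0.35, -0.62 to 0.05 and -0.75 to 0.44.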
